A study of Mus musculus with 13 samples.

Results

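Insulin-like growth factor 1 (Igf1), its receptors and 5 insulin-like growth factor (IGF) binding proteins were followed through mouse heart development in single-cell RNA sequencing data. The 8 genes were chosen by symbol from the 27998 genes listed in every matrix and are the ligand Igf1, the receptors Igf1r and Igf2r, and the binding proteins Igfbp2, Igfbp3, Igfbp4, Igfbp5 and Igfbp7. They were described in the 80741 barcodes, each taken as a cell, that held at least 2000 unique molecular identifiers (UMIs), the molecules counted. Of these barcodes, 37186 fell into 1 of 6 classes gated on marker genes. The study sampled wild-type C57Bl/6J mice without treatment or transgene, so that no allele differs between groups, to follow the cardiac conduction system. E8.5 and E10.5 cells came from embryos without head and limbs, and those from E12.5 to E16.5 and from P3 came from hearts. E10.5, E12.5, E14.5 and E16.5 have 2 libraries each (E16.5 replicate 1 is 1 matrix for 2 records), while E8.5 has 1 matrix and P3 has 1 matrix that pools 2 records, so E8.5 and P3 enter no test. Neither the labels nor the study's methods say that the libraries of a stage came from separate animals, so p-values measure the spread between libraries only.

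In the IGF system, the secreted ligands Igf1 and Igf2 act through the tyrosine kinase receptor Igf1r, which drives growth and survival. Igf2r has no kinase domain and carries Igf2 to lysosomes, where it is degraded. The binding proteins are secreted, hold the ligands outside the cell and lengthen or limit their access to the receptor, and proteases such as Pappa release the ligands again. Igfbp7 binds IGFs weakly and is best known as a matrix protein of vessels and mesenchyme. In the heart the system supports growth of the ventricular wall, and Igf2 from epicardium and endocardium is a known signal to embryonic cardiomyocytes.

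On GRCm38, with the GENCODE annotation, Igf1 lies at chr10:87858265-87937042, Igf1r at chr7:67952827-68233668, Igf2r at chr17:12682406-12769664, Igfbp3 at chr11:7206086-7213923, Igfbp4 at chr11:99041244-99054392 and Igfbp7 at chr5:77349240-77408041. Igfbp2 at chr1:72824503-72852474 on the plus strand and Igfbp5 at chr1:72857932-72874884 on the minus strand face each other with 5457 bases between them. Genes on the other strand overlap Igf1 (Igf1os), Igf2r (Airn) and Igfbp7 (Polr2b and Gm34648). UMIs were counted by strand, so these partners are counted apart. All 8 genes have an entry in the RefSeq promoter table of GRCm38.p6, and the sequences before the start site are shown for the neighbours Igfbp5 and Igfbp2, whose stage patterns differ, and for Igfbp3 and Igfbp7, which were higher in coronary than in endocardial barcodes. Capitals mark TATNNA and GGGCGG, each searched on both strands. They occur in 56.2% and 32.7% of the 32851 windows of 250 bases in the table. Igfbp5 (chr1:72874885-72875115, minus strand) and Igfbp2 (chr1:72824230-72824479, plus strand) come first, followed by Igfbp3 (chr11:7213924-7214173, minus strand) and Igfbp7 (chr5:77408046-77408295, minus strand), all read 5′ to 3′.
Igfbp5: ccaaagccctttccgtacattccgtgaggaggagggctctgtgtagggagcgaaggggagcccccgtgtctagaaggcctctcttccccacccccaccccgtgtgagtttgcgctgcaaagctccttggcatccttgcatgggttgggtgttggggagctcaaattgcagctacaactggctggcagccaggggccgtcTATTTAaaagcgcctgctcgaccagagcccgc
Igfbp2: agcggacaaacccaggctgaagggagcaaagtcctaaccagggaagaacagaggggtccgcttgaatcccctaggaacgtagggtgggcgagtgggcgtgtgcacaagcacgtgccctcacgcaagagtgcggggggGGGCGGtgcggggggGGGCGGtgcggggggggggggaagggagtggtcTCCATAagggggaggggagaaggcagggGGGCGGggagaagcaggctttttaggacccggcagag
Igfbp3: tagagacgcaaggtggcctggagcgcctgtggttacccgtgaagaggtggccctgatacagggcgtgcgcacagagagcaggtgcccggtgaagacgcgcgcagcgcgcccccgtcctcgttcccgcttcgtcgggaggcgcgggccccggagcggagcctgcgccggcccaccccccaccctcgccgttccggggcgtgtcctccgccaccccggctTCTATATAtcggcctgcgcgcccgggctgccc
Igfbp7: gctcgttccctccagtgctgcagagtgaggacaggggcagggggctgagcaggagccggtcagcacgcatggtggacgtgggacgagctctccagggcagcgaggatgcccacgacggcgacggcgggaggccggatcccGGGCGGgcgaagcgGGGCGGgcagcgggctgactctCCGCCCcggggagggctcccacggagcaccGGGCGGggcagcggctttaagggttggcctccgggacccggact
Igfbp5 has 1 match to TATNNA and Igfbp3 has 2 overlapping ones, and neither has GGGCGG. Igfbp7 has 4 matches to GGGCGG and none to TATNNA, while Igfbp2 has 3 and 1. A match describes the letters only.

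The classes were ventricular and atrial cardiomyocytes (Tnnt2 with Myl2 or Myl7, 23072 and 3554 barcodes), endothelial cells (Cdh5, 4805), mesenchymal cells (Col1a1, 4214), epicardial cells (Upk3b, 1197) and macrophages (C1qa, 344). In the libraries of E12.5 to P3, each class carried the markers of its name that the gate did not use. No such marker ranges are given for the E8.5 and E10.5 embryos. In the heart libraries the summed level of the 6 endothelial markers was 14.6 to 26.4 UMIs per 10000 in endothelial barcodes and at most 2.58 in epicardial, 0.76 in mesenchymal, 0.596 in macrophage, 0.509 in atrial and 0.252 in ventricular ones. Other lists were less separate. The 7 mesenchymal markers stood at 7.82 to 59.2 in epicardial barcodes, whose own 5 stood at 6.27 to 37.0, and the 5 atrial markers at 23.4 to 101.1 in ventricular and 138.4 to 545.8 in atrial barcodes. Libraries held 67141166 to 259041468 UMIs and 4928 to 14675 barcodes over the minimum. Barcodes in the Upk3b gate stayed epicardial when they also passed the Col1a1 gate. Those that passed any other pair of gates (545) were set apart, as were 4007 erythroid barcodes. The latter had over 10% of their UMIs from globin genes, whatever other gate they passed, so they can include other cells. No doublet caller was run, so doublets within a gate remain. Between 0.548 and 2.42% of the barcode sequences were shared by any pair of libraries or P3 barcode suffixes. Free RNA reached all droplets: Tnnt2 in endothelial, mesenchymal, epicardial and macrophage barcodes stood at 1.80 to 6.37% of its level in near-empty droplets of the heart libraries. In the E8.5 and E10.5 libraries, where near-empty droplets held little Tnnt2 (0.251 to 0.842 UMIs per 10000), the endothelial, mesenchymal and epicardial shares were 13.1 to 109.9%. A level is the number of UMIs of a gene per 10000 UMIs summed over a class and library, given for replicate 1 and then replicate 2. It does not separate fewer cells with a transcript from fewer transcripts per cell. Fitted fold changes are scaled by edgeR's TMM factors instead. They can therefore differ from the ratio of the printed levels. A class was summed and tested only with at least 20 barcodes in a library, which leaves macrophages with no sum at E12.5.

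**Figure D1:**
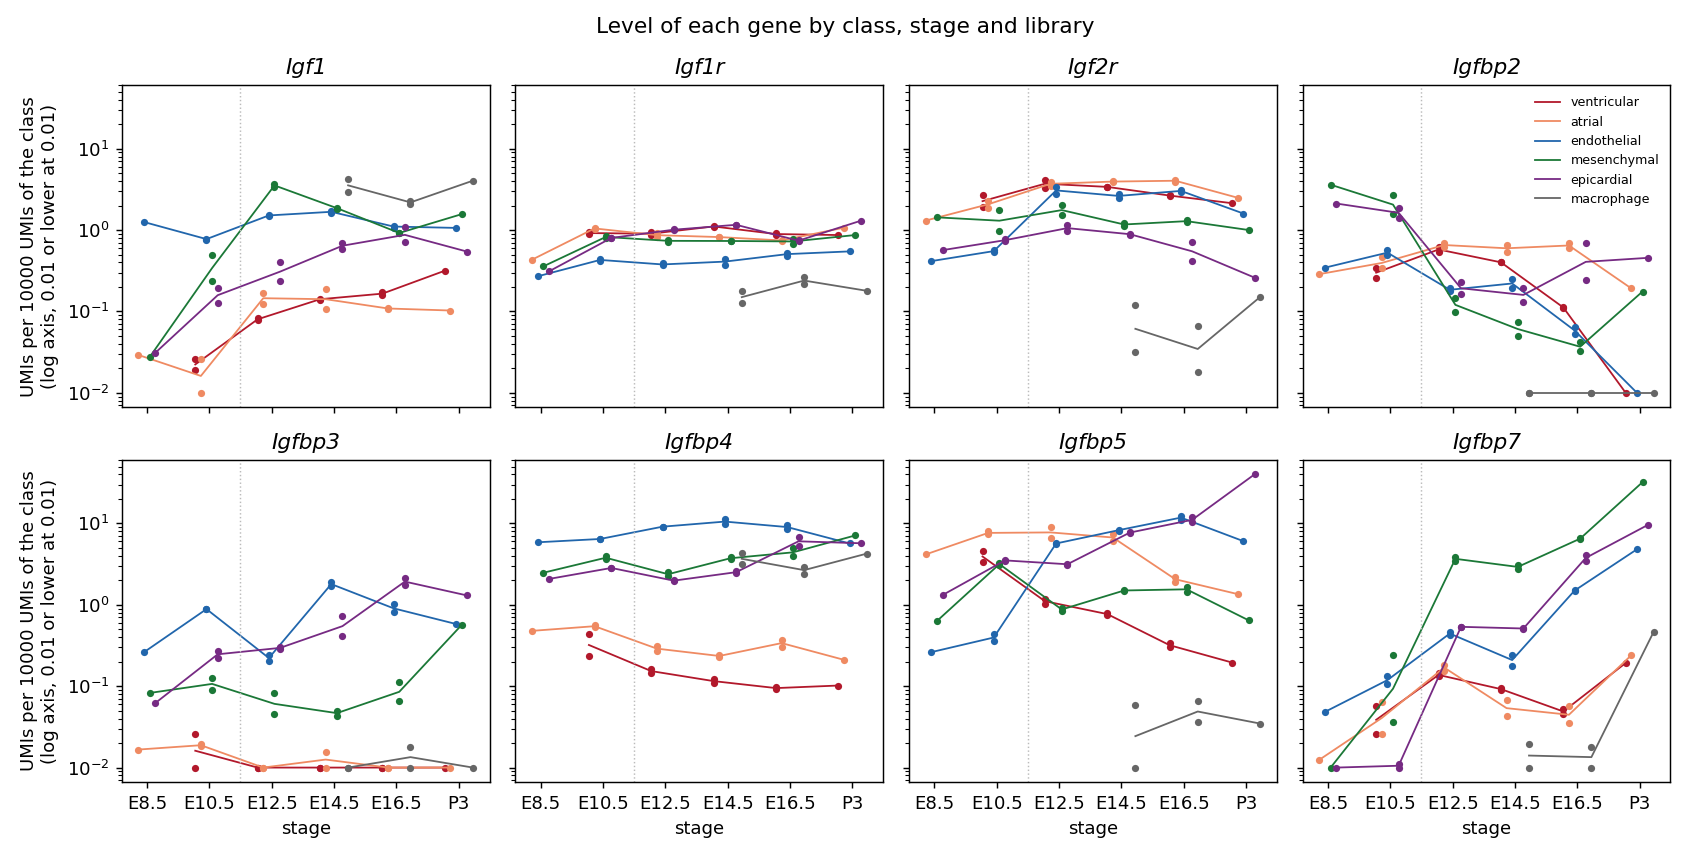
Level of the 8 genes (UMIs per 10000 UMIs of the class, log axis, values of 0.01 or lower drawn at 0.01) by stage, with 1 point per library, lines through the geometric mean and colours for the 6 classes; the dotted line separates embryos from hearts. Igfbp5 rose in endothelial and epicardial cells and fell in both cardiomyocyte classes between E12.5 and E16.5, while Igf1r stayed within 0.367 and 1.17 in the 5 classes other than macrophages over the same stages.

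Among the 6 classes, Igf1, the ligand, was highest in mesenchymal cells at E12.5 and in macrophages from E14.5 on. Barcodes in no gate held 2.74 and 2.82 at E12.5, with 4651 and 5200 Igf1 UMIs against 902 and 1697 in the mesenchymal class. Most of these UMIs thus lay outside the Col1a1 gate, so the mesenchymal values of Igf1 are those of the gate. In mesenchymal cells its level was 3.71 and 3.37 at E12.5, then 1.83 and 1.89 at E14.5, then 0.914 and 0.927 at E16.5, and it was 1.57 in the P3 matrix. The libraries of these 3 embryonic stages did not overlap, and the change from E12.5 to E16.5 was -1.74 ± 0.10 on the log2 scale (standard error; adjusted p = 6.7e-13, edgeR's quasi-likelihood test). Macrophages held 2.94 and 4.26 at E14.5, then 2.095 and 2.28 at E16.5, with 4.04 at P3. Endothelial cells stood between 1.07 and 1.74 in the 6 heart libraries tested and fell by 0.56 on the log2 scale from E12.5 to E16.5 (standard error 0.08, adjusted p = 1.9e-05). Cardiomyocytes held little Igf1. Ventricular barcodes went from 0.0827 and 0.0774 at E12.5 to 0.144 and 0.138 at E14.5 followed by 0.174 and 0.157 at E16.5, a rise of 1.19 ± 0.09 (adjusted p = 6.9e-13), and stood at 0.316 at P3. The P3 value depends on the barcode suffix, since ventricular barcodes with suffix 1 held 0.225 and those with suffix 2 held 0.569. From visual inspection, the study named P3 as the only stage whose batches differed significantly. Erythroid barcodes, which should lack the gene, held 0.0226 to 0.0482 in the same libraries and 0.266 at P3. In epicardial cells Igf1 rose from 0.405 and 0.235 at E12.5 to 1.08 and 0.707 at E16.5 (log2 fold change 1.53 ± 0.23, adjusted p = 1.2e-05), and without E16.5 replicate 1 the value was 1.06 (adjusted p = 0.10). Igf1 fell in the mesenchymal and endothelial classes as a whole while it rose in epicardial and ventricular cells. Within the endothelial gates described further on, coronary barcodes held 0.462 and 0.588 at E12.5 and 0.853 and 0.956 at E16.5, and endocardial ones 1.41 and 1.51 and then 1.12 and 1.16. Its atrial change of -0.28 ± 0.22 did not pass (adjusted p = 0.38).

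Igf1r, the signalling receptor, passed in few stage comparisons. Ventricular barcodes held 0.865 and 0.941 at E12.5, then 1.10 and 1.11 at E14.5 and finally 0.919 and 0.867 at E16.5. Of the 5 classes tested between E12.5 and E16.5, endothelial (0.33 ± 0.10, adjusted p = 0.014) and epicardial cells (-0.49 ± 0.16, adjusted p = 0.023) passed. Neither call held in every alternative: without E16.5 replicate 1 the values were 0.26 (adjusted p = 0.16) and -0.57 (adjusted p = 0.17), and the epicardial call was also lost without E10.5 replicate 1, E12.5 replicate 2 or E16.5 replicate 2. Endothelial cells stayed below the cardiomyocyte, mesenchymal and epicardial classes in every heart library of E12.5 to E16.5, at 0.367 to 0.529. Macrophages were lowest, at 0.126 to 0.264.

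Igf2r, the clearance receptor of Igf2, was highest in cardiomyocytes and endothelial cells and lowest in macrophages. Atrial barcodes held 3.52 and 3.89 at E12.5 and 3.91 and 4.17 at E16.5, with 0.29 ± 0.10 between the stages (adjusted p = 0.023). That call was lost without E12.5 replicate 1 (0.24, adjusted p = 0.16), E16.5 replicate 1 (0.32, adjusted p = 0.078) or E16.5 replicate 2 (0.27, adjusted p = 0.15). Ventricular barcodes held 3.33 and 4.13 at E12.5 and 2.59 and 2.72 at E16.5, a change of -0.36 ± 0.09 (adjusted p = 0.0016). Mesenchymal cells held 1.12 to 2.03, epicardial cells 0.42 to 1.16 and macrophages 0.0181 to 0.118, under the erythroid range of 0.143 to 0.23. The ventricular fall was lost with the study's mitochondrial ceilings, where the change was 0.02 (adjusted p = 0.79). These ceilings differ by stage, at 7.5% for E12.5 and 15% for E16.5. The median share of mitochondrial UMIs in ventricular barcodes rose from 5.13 and 5.43% at E12.5 to 10.54 and 11.06% at E16.5. Whether mitochondrial content accounts for the fall was not tested.

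Igfbp2 had its highest E12.5 levels in cardiomyocytes of both chambers. Atrial barcodes held 0.693 and 0.618 at E12.5 and 0.607 and 0.687 at E16.5, with no call (0.15 ± 0.11, adjusted p = 0.38). In ventricular barcodes it fell from 0.626 and 0.532 at E12.5 to 0.403 and 0.399 at E14.5 followed by 0.111 and 0.113 at E16.5 (-2.24 ± 0.09, adjusted p = 1.7e-19), and stood at 0.00934 at P3 (0.0114 in suffix 1 and 0.00374 in suffix 2). Endothelial (-1.77 ± 0.18, adjusted p = 3.2e-07) and mesenchymal cells (-1.57 ± 0.32, adjusted p = 0.00038) fell as well, the latter without a call when E12.5 replicate 2 was left out (-1.18, adjusted p = 0.065). In the P3 matrix, outside the tests, endothelial cells held 0.00193 (3 UMIs) but mesenchymal cells 0.176. That mesenchymal level is above their 0.0988 and 0.147 at E12.5 and their 0.042 and 0.0323 at E16.5. Epicardial cells held 0.227 and 0.163 at E12.5 and 0.241 and 0.685 at E16.5, with a fitted change of 0.93 ± 0.33 (adjusted p = 0.036). It rests on replicate 2 of E16.5, without which it was 0.29 (adjusted p = 0.67), and it was also lost without E12.5 replicate 2 (0.74, adjusted p = 0.10). No macrophage barcode of E14.5, E16.5 or P3 held a UMI of Igfbp2, which allows a level of up to 0.0542 to 0.0991 in the 4 embryonic libraries and 0.0174 at P3 (3 counts of the total, for counting error only).

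Igfbp3, a binding protein carried in serum in a complex with Igf1, stood higher in endothelial and epicardial cells than in the other classes at E14.5 and E16.5. Endothelial barcodes held 0.206 and 0.239 at E12.5, then 1.69 and 1.91 at E14.5 and finally 0.811 and 1.01 at E16.5. It therefore rose by 2.92 ± 0.10 from E12.5 to E14.5 (adjusted p = 1.0e-12) and fell by 1.01 from E14.5 to E16.5 (standard error 0.10, adjusted p = 2.1e-06). Epicardial cells went from 0.286 and 0.306 at E12.5 to 0.416 and 0.72 at E14.5 followed by 1.73 and 2.14 at E16.5 (2.62 ± 0.18 from E12.5, adjusted p = 2.1e-12). Atrial and ventricular barcodes held 0.00216 to 0.0157 and macrophages at most 0.0181, within the erythroid range of 0 to 0.0206. Fitted fold changes against such levels are not given. At P3 mesenchymal cells held 0.959 in suffix 1 and 0.307 in suffix 2, against 0.575 and 0.589 in endothelial cells, and epicardial barcodes of both held 1.30.

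Igfbp4 was highest in endothelial cells and lowest in cardiomyocytes from E12.5 to E16.5. Endothelial barcodes held 9.10 and 9.14 at E12.5, then 11.3 and 9.85 at E14.5 and finally 8.44 and 9.64 at E16.5, against 0.0929 to 0.162 in ventricular and 0.227 to 0.374 in atrial barcodes of these libraries. Erythroid barcodes held 0.0812 to 0.181, so the ventricular level lies within that background. Igfbp4 rose between E12.5 and E16.5 in mesenchymal cells, from 2.24 and 2.52 to 3.94 and 4.95 (1.08 ± 0.10, adjusted p = 2.7e-09), and in epicardial cells, from 2.02 and 1.94 to 5.29 and 6.87 (1.54 ± 0.12, adjusted p = 4.1e-11). The endothelial change of -0.12 ± 0.08 did not pass (adjusted p = 0.24). At P3 mesenchymal cells held 6.42 in suffix 1 and 7.58 in suffix 2, epicardial cells 5.65 and 5.77, and endothelial cells 6.51 and 4.64. Macrophages held 4.29 and 3.15 at E14.5 followed by 2.42 and 2.94 at E16.5.

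Igfbp5 fell in both cardiomyocyte classes and rose in endothelial, epicardial and mesenchymal cells. In endothelial cells it was 5.55 and 5.80 at E12.5, then 8.12 and 8.39 at E14.5 and finally 11.1 and 12.49 at E16.5 (0.96 ± 0.08 from E12.5 to E16.5, adjusted p = 5.7e-08). In epicardial cells it went from 3.18 and 3.12 to 7.56 and 7.87 and to 11.9 and 10.3 (1.77 ± 0.10, adjusted p = 1.1e-13), and the 22 epicardial barcodes of P3 held 40.1. Atrial barcodes held 6.63 and 9.07 at E12.5, then 7.36 and 6.12 at E14.5 and finally 2.20 and 1.93 at E16.5 (-1.75 ± 0.12, adjusted p = 8.2e-14). Ventricular barcodes went from 1.03 and 1.19 to 0.783 and 0.756 and to 0.339 and 0.30 (-1.66 ± 0.09, adjusted p = 5.6e-16). In mesenchymal cells it rose from 0.844 and 0.911 to 1.66 and 1.45 (1.02 ± 0.11, adjusted p = 2.2e-08). Macrophages held at most 0.0661 from E14.5 on, below the 0.0853 to 0.175 of erythroid barcodes in the heart libraries of E12.5 to E16.5. Its neighbour Igfbp2 fell in endothelial and mesenchymal cells over the same stages, while Igfbp5 rose there.

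Among the 6 classes, Igfbp7 was highest in mesenchymal cells from E12.5 on and rose steeply there after E14.5. Barcodes in no gate held 2.66 and 2.42 at E12.5, with 4511 and 4465 Igfbp7 UMIs against 948 and 1744 in the mesenchymal class. The mesenchymal values of Igfbp7 are therefore also those of the gate. Mesenchymal barcodes held 3.901 and 3.46 at E12.5, then 2.76 and 3.096 at E14.5, then 6.59 and 6.42 at E16.5. The P3 matrix gave 32.2. The change was 1.36 ± 0.11 from E14.5 to E16.5 (adjusted p = 5.1e-10). When each barcode was thinned to 2000 UMIs, 45.2 and 37.5% of mesenchymal barcodes held the gene at E12.5, 61.5 and 66.5% at E16.5, with 98.5% at P3, against 0.429 to 1.33% of erythroid barcodes in the libraries of E12.5 to E16.5 and 8.03% of them at P3. Before thinning, the mesenchymal shares had been 87.3 and 71.6% at E12.5, 96.0 and 92.6% at E16.5, with 99.9% at P3, at median depths of 13656.5 and 11770, 14032.5 and 10374, and 10541 UMIs. Endothelial cells went from 0.464 and 0.424 at E12.5 to 0.179 and 0.245 at E14.5 followed by 1.52 and 1.47 at E16.5 (2.83 ± 0.13 from E14.5 to E16.5, adjusted p = 1.5e-10). Epicardial cells held 0.538 and 0.535, then 0.507 and 0.516, then 4.07 and 3.49 (2.91 ± 0.17 from E14.5 to E16.5, adjusted p = 7.1e-13). In ventricular and atrial barcodes it fell from 0.132 to 0.184 at E12.5 to 0.0351 to 0.0567 at E16.5, which is under the erythroid levels of 0.108 and 0.0856 there. At P3, erythroid barcodes held 2.11 and ventricular ones 0.193 (0.137 in suffix 1 and 0.349 in suffix 2). Atrial, macrophage and endocardial barcodes of P3 also lay under the erythroid level. At E16.5 ventricular, atrial, macrophage and endocardial barcodes lay under it as well. That level therefore does not measure a background shared by all droplets at E16.5 or P3, and low levels of this gene have no such reference there.

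The question of which members change with stage within a class was put to the 2 libraries of each stage. From E12.5 to E16.5, 6 of 8 members passed in ventricular cells, where 62.7% of the 13817 genes tested passed. In atrial cells 4 of 7 passed (26.7% of all genes), in endothelial cells 6 of 8 (43.5%), in mesenchymal cells 5 of 8 (34.0%) and in epicardial cells 8 of 8 (26.3%). The median log2 fold change of the members was -0.51 in ventricular, -0.05 in atrial, 0.11 in endothelial, 0.34 in mesenchymal and 1.54 in epicardial cells, while the median of all genes lay between -0.06 and 0.00 in these fits. From E12.5 to E14.5, 6 of 8 passed in ventricular cells (39.1% of all genes), 1 of 7 in atrial cells (8.3%), 4 of 8 in endothelial cells (34.4%), 6 of 8 in mesenchymal cells (17.1%) and 3 of 8 in epicardial cells (17.5%). From E14.5 to E16.5 the counts were 4 of 8 (42.3%), 2 of 7 (12%), 6 of 8 (16.8%), 4 of 8 (22.8%) and 5 of 8 (9.31%) in the same order. The change from E12.5 to E16.5 differed between the 5 classes in 8 of 8 members by an F test (49.0% of all genes), also with the library as a block, since these sums come from the same libraries. The Igf1r call was lost without E16.5 replicate 1 (adjusted p = 0.10). In macrophages 0 of the 2 members tested, Igf1 (adjusted p = 0.18) and Igfbp4 (adjusted p = 0.32), passed from E14.5 to E16.5 with edgeR, where 1.14% of 4107 genes passed. Both had an unadjusted p under 0.05 there, and DESeq2 called 0.

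**Figure D2:**
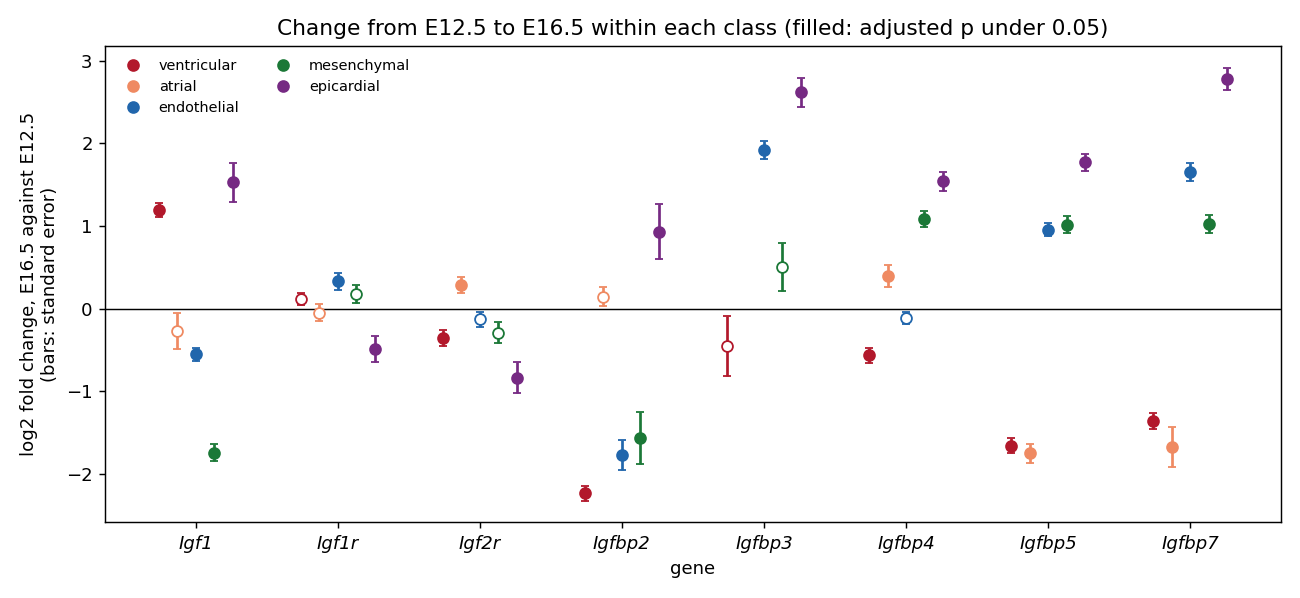
Log2 fold change from E12.5 to E16.5 (edgeR, bars are standard errors) for each gene, with 1 point per class; filled points have an adjusted p under 0.05 and open points do not. Igf1 went from -1.74 in mesenchymal to 1.53 in epicardial cells, and Igfbp5 and Igfbp7 were below 0 in both cardiomyocyte classes and above 0 in the other 3.

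The epicardial class changed in makeup over these stages. Of its barcodes, 85 of 220 and 123 of 294 also passed the Col1a1 gate at E12.5, 64 of 80 and 57 of 73 at E14.5, and 64 of 66 and 36 of 36 at E16.5, and the summed level of the 7 mesenchymal markers in epicardial barcodes went from 8.15 and 7.82 at E12.5 to 33.7 and 28.7 at E16.5. Among epicardial barcodes that also passed the Col1a1 gate, a comparison added after seeing the data, 7 of 8 members passed from E12.5 to E16.5, where 23.5% of 7973 genes did. There Igfbp7 changed by 2.78 (adjusted p = 2.2e-13), Igfbp3 by 2.61 (adjusted p = 6.9e-11) and Igfbp5 by 1.40 (adjusted p = 1.5e-09), and Igf1r did not pass (-0.45, adjusted p = 0.091).

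The endothelial class also changed in makeup. Endocardial-gated barcodes (Npr3 with no Fabp4) were 443 and 531 at E12.5 and 139 and 111 at E16.5, while coronary-gated ones (Fabp4 with no Npr3) went from 19 and 16 to 169 and 137. The part of these shifts in the endothelial values was not tested, and values within the gates follow.

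Endocardial and coronary endothelium differed in 7 of 8 members over E14.5 and E16.5, where 54.8% of 10414 genes passed. Igfbp5 was the member furthest to the endocardial side. Endocardial barcodes held 14.1 and 20.96 at E14.5 followed by 23.7 and 29.1 at E16.5, coronary ones 0.97 and 2.104 and then 0.652 and 0.832 (4.21 ± 0.15, adjusted p = 5.3e-19). Already at E12.5, outside the test, endocardial barcodes held 6.17 and 6.53 and coronary ones 0.862 and 0.93. Thinned to 2000 UMIs, 65.6 and 77.5% of endocardial barcodes held Igfbp5 at E14.5, then 69.1 and 73.0% at E16.5, at median depths of 13509, 12222.5, 11468 and 10520 UMIs. Before thinning the shares were 85.5 and 87.5% and then 87.1 and 82.9%. Erythroid barcodes, the background, held it in 0.393 to 1.55% after thinning, at median depths of 11791.5 to 19879 UMIs. Igf2r followed, at 4.52 and 4.53 and then 5.97 and 6.18 in endocardial barcodes against 0.613 and 0.735 and then 0.779 and 1.00 in coronary ones (2.63 ± 0.08, adjusted p = 2.6e-20). Igf1 (0.96 ± 0.08, adjusted p = 1.5e-10) and Igfbp4 (0.65 ± 0.07, adjusted p = 2.8e-09) were also higher in endocardial barcodes. Coronary barcodes were higher in Igfbp3, with 1.24 and 1.37 at E12.5 (outside the test) against 0.13 and 0.129 in endocardial ones, and 3.41 and 2.97 at E14.5 followed by 0.994 and 1.47 at E16.5 against 0.172 to 0.352 in endocardial ones (log2 -3.12 ± 0.13, adjusted p = 1.4e-17). Igfbp7 was 0.184 and 0.148 in endocardial and 0.137 and 0.19 in coronary barcodes at E12.5. Coronary barcodes were above endocardial ones at E14.5 (0.167 and 0.189 against 0.0932 and 0.0497) and further apart at E16.5 (2.78 and 2.76 against 0.0262 and 0.076, the latter pair under the erythroid levels of 0.108 and 0.0856) (adjusted p = 2.9e-15 over both stages). Endocardial levels of Igfbp7 rest on few counts (26 and 8 UMIs at E14.5, 5 and 10 at E16.5), so no fitted fold change is given. At P3 coronary barcodes held 5.04 in suffix 1 and 7.53 in suffix 2, and endocardial ones 0.157 and 0.799. Igfbp2 was higher in coronary barcodes at E14.5, at 0.433 and 0.289 against 0.0645 and 0.0746. At E16.5 it was 0.0919 and 0.103 in coronary barcodes, and endocardial barcodes held 2 UMIs (0.0105) and 0 UMIs, under the erythroid levels of 0.0165 and 0.0111. The test over both stages passed (adjusted p = 3.8e-09), and its fitted fold change is not given since it depends on these counts. Igf1r did not pass (0.22 ± 0.12, adjusted p = 0.12), although it did with a minimum of 5 barcodes, which adds E12.5 (0.31, adjusted p = 0.026).

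**Figure D3:**
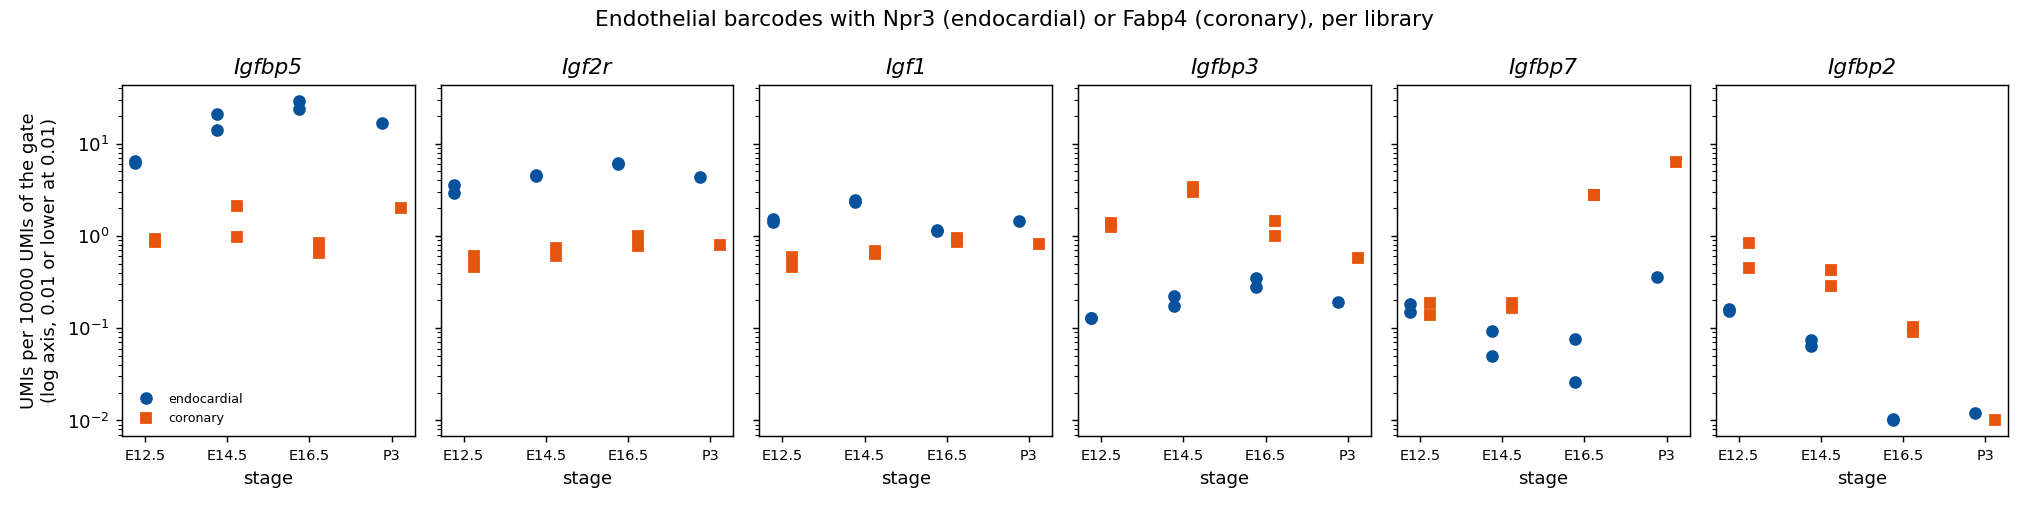
Levels (UMIs per 10000 UMIs of the gate, log axis, values of 0.01 or lower at 0.01) of 6 members in endocardial (circles) and coronary (squares) barcodes by stage, with 1 point per library and at least 5 barcodes behind it. Igfbp5 and Igf2r were higher in endocardial barcodes at every stage shown, and Igfbp3 in coronary ones, while Igfbp7 in coronary barcodes was above the endocardial level from E14.5 on.

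Cushion mesenchyme (Sox9 with no Tcf21) and fibroblast-gated mesenchyme (Tcf21 with no Sox9) could be compared with 20 barcodes in each library only at E16.5, where 9.04% of 6297 genes passed. Of 6 members tested, 3 passed. Igf1 was higher in cushion barcodes, at 1.30 and 1.75 against 0.368 and 0.552 (1.57 ± 0.23, adjusted p = 6.1e-05). At E12.5 and E14.5 cushion barcodes held 4.83 and 4.02 and then 2.81 and 3.26. Igfbp5 was lower in cushion barcodes at E16.5, at 0.892 and 0.86 against 1.67 and 1.83 (-1.15 ± 0.18, adjusted p = 9.9e-05). At E14.5 the order was the other way, at 1.90 and 2.05 against 0.384 and 0.331, with 17 and 20 fibroblast-gated barcodes, and the value averaged over both stages with a minimum of 5 barcodes was 0.53 (adjusted p = 0.036). Igfbp7 was 8.58 and 8.45 in cushion and 6.05 and 5.68 in fibroblast barcodes at E16.5 (0.38 ± 0.12, adjusted p = 0.046), a call lost with DESeq2 (adjusted p = 0.19), and 30.5 and 33.7 at P3. Igf2r passed with the library as a block (-0.53, adjusted p = 0.036). The summed level of the 5 pericyte and smooth muscle markers in the mesenchymal class was 18.0 and 17.6 at E12.5 and 6.23 and 5.09 at E16.5, with none of them at 0. Of the mesenchymal barcodes, the cushion gate held 76 of 166 and 179 of 395 at E12.5. In the E16.5 libraries it held 87 of 548 and 78 of 501. The part of these shifts in the mesenchymal values was not tested.

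The chambers differed in 5 of 8 members over E12.5, E14.5 and E16.5, where 47.5% of 14147 genes passed. Atrial cells were higher in Igfbp5 (ventricular against atrial, log2 -2.69 ± 0.07, adjusted p = 2.7e-30) and Igfbp2 (-0.91 ± 0.08, adjusted p = 8.8e-13). They were also higher in Igfbp4, at 0.227 to 0.374 against 0.0929 to 0.162 (adjusted p = 1.0e-13), for which no fitted fold change is given, since the ventricular level lies within the erythroid range of 0.0812 to 0.181. Ventricular cells were higher in Igf1r (0.44 ± 0.05, adjusted p = 2.5e-09). Its E12.5 levels were 0.865 and 0.941 in ventricular and 0.819 and 0.913 in atrial cells, and at P3, outside the test, the order was the other way (0.868 and 1.07). Igfbp7 also passed (0.38 ± 0.13, adjusted p = 0.012), but its level was higher in atrial cells in 3 of 6 libraries. It was at most 0.184 in either chamber, with 0.0255 to 0.108 in erythroid barcodes. The call was lost without E14.5 replicate 1 (0.25, adjusted p = 0.21) or E16.5 replicate 2 (0.27, adjusted p = 0.12). Igf1 (0.05 ± 0.11, adjusted p = 0.77) and Igf2r (-0.08 ± 0.06, adjusted p = 0.33) did not pass, although Igf2r passed with the library as a block (-0.08, adjusted p = 0.034).

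Cardiomyocytes with both Hcn4 and Tbx3, which the study uses as marks of the conduction system, numbered 72 in the 6 heart libraries, 7 to 18 in each. Both genes are found more often at greater depth, and the median depth was 13715.5 to 28804 UMIs with both and 11623 to 19759 with neither. The 72 were compared with the 18346 cardiomyocytes that held neither at a minimum of 5 barcodes per library, a limit set after the counts were seen. Of 7 members tested 4 passed, where 19.8% of 12963 genes did and the median of all genes was -0.30. Igfbp5 was 13.1 and 17.5 at E12.5, then 22.1 and 23.2 at E14.5 and finally 10.6 and 19.7 at E16.5 with both genes, against 1.14 and 1.47, 0.798 and 0.731, and 0.371 and 0.343 with neither (4.19 ± 0.08, adjusted p = 1.5e-46). The groups did not overlap in any library, and P3 held 16.2 against 0.24 (15.3 against 0.188 in suffix 1, and 29.9 in 2 barcodes against 0.367 in suffix 2). Atrial barcodes were 44.4% of those with both genes and 10.0% of those with neither. Within atrial barcodes summed over the 6 libraries, Igfbp5 was 32.0 with both (32 barcodes) and 3.19 with neither, and within ventricular barcodes 7.90 (38 barcodes) and 0.53. Igfbp4 was also higher, at 0.33 to 1.02 against 0.101 to 0.164, the latter within the erythroid range (adjusted p = 5.1e-12). Igfbp2 passed as lower (-1.03 ± 0.28, adjusted p = 0.0051), at 0 in 2 of the 6 libraries but higher with both genes in E16.5 replicate 2 (0.311 against 0.164). The value was -4.67 without E14.5 replicate 1 and -4.78 without E16.5 replicate 2, where the stage left with 1 library is at 0 UMIs. Summed over the 6 libraries it was 0.116 with both and 0.705 with neither in atrial barcodes, and the other way in ventricular ones, at 0.457 and 0.342. Igfbp7 passed (1.15 ± 0.35, adjusted p = 0.013) through E14.5 replicate 1, where it was 0.763 with both genes against 0 in replicate 2, and did not pass without that library (adjusted p = 0.57), where E14.5 is left with 7 barcodes at 0 UMIs. Both E16.5 libraries were higher with both genes, at 0.198 (3 UMIs) against 0.0442 in replicate 1 and 0.311 (5 UMIs) against 0.0469 in replicate 2. Both E12.5 libraries were lower with both genes, at 0.0585 (2 UMIs) against 0.138 and 0.136 (5 UMIs) against 0.141. It was also lost without E12.5 replicate 2 (0.88, adjusted p = 0.26) or E16.5 replicate 2 (1.00, adjusted p = 0.12). Summed over the 6 libraries, Igfbp7 was 0.490 with both and 0.0813 with neither in ventricular barcodes. In atrial ones the order was the other way, at 0.0166 (1 UMI) and 0.113. Igf1, Igf1r and Igf2r did not pass (adjusted p = 0.43, 0.99 and 0.60). The levels of Igf1r (0.872 to 1.72 against 0.834 to 1.10) and Igf2r were nevertheless higher with both genes in 6 of 6 libraries. Levels and fitted changes are scaled differently, and the source of this gap was not tested. The same scaling enters the fitted values of Igfbp5, Igfbp2 and Igfbp7. With the library as a block the fitted changes of Igf1r and Igf2r were -0.0024 (adjusted p = 0.998) and 0.064 (adjusted p = 0.702), and Igf2r passed with the mitochondrial ceilings (0.25, adjusted p = 0.031).

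**Figure D4:**
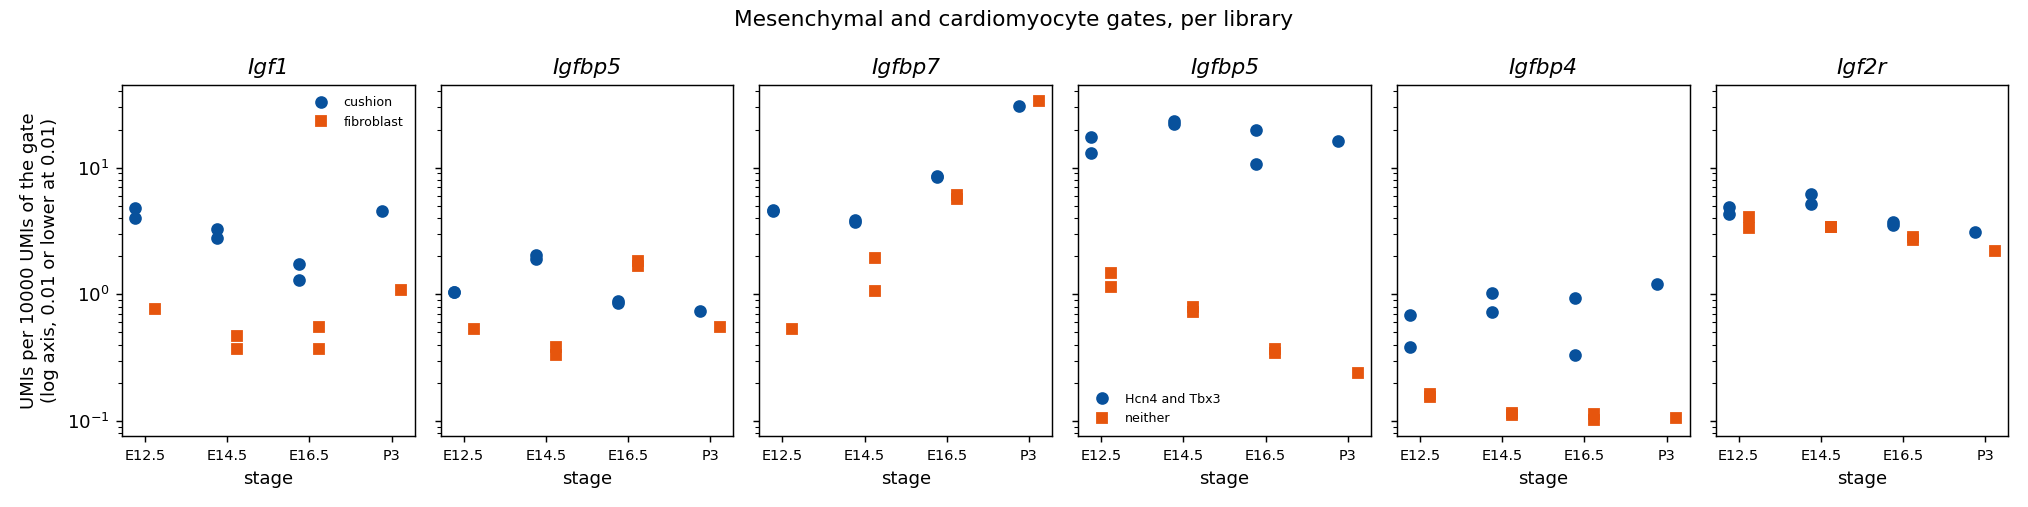
Levels (UMIs per 10000 UMIs of the gate, log axis) in cushion and fibroblast-gated mesenchyme (left 3 panels) and in cardiomyocytes with Hcn4 and Tbx3 or with neither (right 3 panels), with 1 point per library and at least 5 barcodes behind it. Igfbp5 with both genes was 10.6 to 23.2 in the 6 embryonic heart libraries and at most 1.47 with neither, while Igf2r was 3.50 to 6.21 with both and 2.68 to 4.09 with neither.

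Against the mean of the other classes over E12.5, E14.5 and E16.5, members passed in the numbers of 7 of 8 for ventricular (63.7% of 14147 genes), 7 for atrial (58.6%), 7 for endothelial (57.0%), 4 for mesenchymal (57.2%), 7 for epicardial (46.9%) and 8 for macrophage sums (44.9%). The median of all genes was -0.56 in the macrophage contrast and 0.15 in the ventricular one, so levels there are read against that shift. Endothelial cells were higher in Igfbp4 (3.37 ± 0.04, adjusted p = 2.5e-42), mesenchymal cells in Igfbp7 (4.51 ± 0.06, adjusted p = 4.5e-41) and Igf1 (1.88 ± 0.06, adjusted p = 1.2e-27), and atrial cells in Igf2r (1.77 ± 0.06, adjusted p = 4.4e-26). The Igf1 value is an average over stages and does not hold as an order at E16.5. Mesenchymal cells held 0.914 and 0.927 there, under endothelial cells (1.07 and 1.13) and macrophages (2.095 and 2.28). The other classes include sums at or under the erythroid background (Igfbp4 and Igfbp7 in cardiomyocytes, Igf2r in macrophages), so the sizes of these differences are not exact. Macrophages have no sum at E12.5 and members at or near 0. With that class left out, an alternative added after seeing the data, 38 of 40 member tests passed, where 54 to 72.3% of 13757 genes did, Igf2r in atrial cells was 1.11 (adjusted p = 3.2e-20), and Igfbp2 in endothelial cells went from 0.64 (adjusted p = 0.58) to -0.80 (adjusted p = 3.4e-08).

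E12.5 hearts and E10.5 embryos differ in dissection as well as stage, and these cannot be told apart. Within the mesenchymal gate Igf1 went from 0.493 and 0.236 to 3.71 and 3.37 (3.13 ± 0.18, adjusted p = 1.2e-12) and Igfbp7 from 0.239 and 0.0363 to 3.901 and 3.46 (4.54 ± 0.25, adjusted p = 3.5e-13), while Igfbp2 went from 1.57 and 2.69 to 0.0988 and 0.147 (-4.11 ± 0.24, adjusted p = 7.5e-13). The E10.5 levels of Igfbp7 rest on 16 and 2 UMIs, so the size of its change is not exact. Endothelial Igfbp5 was 0.358 and 0.44 at E10.5 and 5.55 and 5.80 at E12.5 (3.83 ± 0.10, adjusted p = 3.2e-15), and endothelial Igfbp3 was 0.878 and 0.894 and then 0.206 and 0.239 (-1.99 ± 0.10, adjusted p = 2.5e-11). The single E8.5 library held Igfbp2 at 3.61 in 21 barcodes of the mesenchymal gate and 2.12 in 42 of the epicardial gate. Igfbp5 stood at 4.16 in 103 barcodes of its atrial gate. Myl7 is found throughout the early heart tube, and the atrial gate held 103 barcodes and the ventricular gate 10 at E8.5, 104 and 83 against 23 and 35 at E10.5, and 344 and 450 against 2201 and 2963 at E12.5. The atrial values at E8.5 and E10.5 therefore belong to the gate and not to a chamber. Of epicardial-gate barcodes, 19.0% also passed the Col1a1 gate at E8.5 and 6.67 and 8.15% at E10.5. At E12.5 the shares were 38.6 and 41.8%. Values of the mesenchymal and epicardial gates in the embryos likewise belong to the gate and not to a heart cell type. Members that passed numbered 5 of 8 in the ventricular gate (10.7% of all genes), 6 of 7 in the atrial (30.6%) and 7 of 8 in the endothelial gate (58.7%). In the mesenchymal gate 5 of 8 passed (25.7%) and in the epicardial gate 6 of 8 (47.4%).

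Of 30 other genes of the pathway, 20 to 24 were tested in each class. From E12.5 to E16.5, 10 rose and 1 fell of 22 tested in ventricular cells (62.7% of all genes passed there), 5 and 5 of 20 in atrial (26.7%), 9 and 1 of 24 in endothelial (43.5%), 11 and 3 of 24 in mesenchymal (34.0%) and 9 and 0 of 23 in epicardial cells (26.3%). The median log2 fold change of the list was 0.24, 0.07, 0.20, 0.34 and 0.68 in that order. Pik3r1, a regulatory subunit of the kinase below the receptor, rose in all 5 classes, by 0.93 ± 0.07 in ventricular (adjusted p = 3.1e-12), 0.74 ± 0.14 in atrial, 0.61 ± 0.13 in endothelial, 1.00 ± 0.22 in mesenchymal and 1.81 ± 0.33 in epicardial cells. Igf2, the other ligand, was higher in endothelial cells than in the other 5 classes of every heart library, and stood at 11.7 and 14.55 at E12.5 and 20.04 and 21.9 at E16.5 (0.58 ± 0.09, adjusted p = 3.9e-05), and its atrial change was -0.39 ± 0.10 (adjusted p = 0.0026). The insulin receptor Insr rose in ventricular (1.13 ± 0.08, adjusted p = 1.0e-13), atrial (0.74 ± 0.14, adjusted p = 8.8e-05) and endothelial cells (0.86 ± 0.14, adjusted p = 9.4e-05). Igfbp6, a binding protein with a preference for Igf2, rose in epicardial cells from 0.192 and 0.173 to 6.91 and 7.18 (5.21 ± 0.15, adjusted p = 1.5e-19). The makeup of that class changed over these stages, as given above. Igfbp6 was also called higher in mesenchymal cells from E12.5 to E16.5, and Igf2 also in epicardial cells.

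The genes whose level was most like each member over the 34 sums of class and library from E12.5 to E16.5 were listed by Pearson's r of log2(CPM + 1), with CPM the counts scaled to a common library total, as a description. They were Rap2b (r = 0.93), Tmem86a and Lipa for Igf1, Daam1 (0.94), Fasn and Zfpm2 for Igf1r, Tspan12 (0.96), Zfp697 and Armcx4 for Igf2r, and Rbpms (0.92), Aif1l and Bex4 for Igfbp2. For the others they were Prrg3 (0.96), Amigo2 and S100a16 for Igfbp3, Cmtm3 (0.96), Ifi27 and Sep15 for Igfbp4, Prkcdbp (0.90), Igf2 and Nrbp1 for Igfbp5, and Thbs3 (0.96), Gulp1 and Ltbp4 for Igfbp7. The sums share libraries and classes, so the points are not independent.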

How the data were processed

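The authors deposited 10x Genomics matrices of raw UMI counts per gene and barcode, made with Cell Ranger (2.1.1 in the submitters' processing notes, 3.1.0 and, for P3, 3.0.0 in the matrix headers) on mm10, with Seurat 3.1.1 named for later steps. The 8 genes and the lists were chosen with earlier results of these data known. Here barcodes with at least 2000 UMIs were gated on marker genes and counts were summed per class and library, with at least 20 barcodes in a sum. Sums were tested with edgeR 4.0.16 (quasi-likelihood, TMM, R 4.3.3), on every gene that its low-count filter kept, and p-values were adjusted by Benjamini and Hochberg's method, with 0.05 as the threshold. Standard errors are the absolute log2 fold change divided by the square root of F. DESeq2 1.42.0, other size factors, no filter, a block, other gates, depth and mitochondrial limits, and leaving out each library were alternatives. The comparison of cardiomyocytes with Hcn4 and Tbx3 was planned with 20 barcodes per library and run with 5. Scripts were tested on simulated data. All members, and pathway genes called in the most classes, were named. Libraries held 67141166 to 259041468 UMIs, and a level's precision is limited by counting error. E8.5 replicate 1 was not analysed here. Within a library, the deviations of its classes correlated with a median r of 0.15 over 40 pairs (-0.04 to 0.77). The pairs of E12.5 stood highest, at 0.42 to 0.77, against -0.02 to 0.33 at E14.5 and -0.04 to 0.49 at E16.5. Classes and gates of 1 library share that library, which is the block between them.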

Additional observations from a re-analysis of the deposited data

Results flagged for a closer look

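The change from E12.5 to E16.5 differed between the 5 classes in all 8 genes, by an F test of the class-by-stage terms in edgeR that was added after seeing the data (49.0% of 14147 genes passed it). The class sums come from the same libraries, and the fit has no library term. With the library as a block 8 of 8 genes passed (55.2% of all genes), and so they did without any 1 library, except Igf1r without E16.5 replicate 1 (adjusted p = 0.10). The adjusted p was 3.2e-22 for Igfbp5, 1.3e-21 for Igfbp7, 2.5e-16 for Igf1, 9.4e-14 for Igfbp4, 3.0e-13 for Igfbp2, 1.5e-07 for Igfbp3, 0.00034 for Igf2r and 0.0013 for Igf1r. Groups of 2 libraries are too small for a test of single outlying libraries.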

How the results depend on the processing

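Of 235 member tests, 158 passed, and 118 of these kept their direction and their side of the threshold in all 22 alternatives that applied to them (131 when leaving out a library is not counted). These tests pool comparisons in which 1.14 to 63.7% of all genes passed, so the count of 158 is no result about the members. Of the tests that did not pass, 34 passed in some alternative. The number of members called between cushion and fibroblast gates was 3 (9.04% of all genes), and it was 5 with a minimum of 5 barcodes (15.4%), which adds E14.5 and was chosen after seeing the data, and 1 with doubled gates (5.63%). Direction reversed in 8 cases. Igfbp7 with Hcn4 and Tbx3 ranged from -3.20 (without E14.5 replicate 1) to 1.30 (without E12.5 replicate 1) when a library was left out, and was -9.01 in barcodes of 5000 to 20000 UMIs; both negative values come from E14.5 libraries at 0 UMIs and are no estimates. Igfbp5 between cushion and fibroblast gates was 0.53 with 5 barcodes, and when a library was left out it ranged from -1.15 to 0.62 (without E14.5 replicate 1), which lets E14.5 enter by construction. Igf2r in ventricular cells from E12.5 to E16.5 was 0.024 with the mitochondrial ceilings. With the macrophage class left out, Igfbp2 in endothelial cells was -0.80, Igf1 in epicardial cells 0.25 and Igf1r in mesenchymal cells -0.19. Where no construction is named, the cause was not tested. The replicate block was the library in comparisons of classes or gates, and the replicate number in those of stages within a class, where each library gives 1 sum. It ended no call and made 3 other tests pass: Igf2r between chambers (-0.08, adjusted p = 0.034), Igf2r between cushion and fibroblast gates (-0.53, adjusted p = 0.036) and Igfbp2 in epicardial cells from E14.5 to E16.5 (1.25, adjusted p = 0.018). The gate of Hcn4 with Tbx3 held 7 to 18 barcodes per library, and Igfbp2 was at 0 UMIs in 2 of these 6 libraries. The replicate number is the only link used here between libraries of different stages. Their deviations within a class correlated with r of -0.07 to 0.52 (median 0.18, 16 pairs), most but not all of them positive. For classes of the same library the median was 0.15 (40 pairs). Whether libraries with the same number also shared a batch was not tested.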
